A study of Mus musculus with 6 samples.

Results

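Odorant receptor genes, listed under symbols that start with Olfr, were followed across 6 arrays labelled as mouse retina. All probe sets (groups of short probes read together as a single value) whose platform annotation names exactly 1 such gene were taken, and each gene was represented by its probe set with the highest mean over the 6 arrays. The 44 probe sets found in this way gave 39 receptor genes, out of 18193 genes measured by the same rule, and 3 further probe sets that name several receptors were left out of the counts. Per the labels, retinal tissue, without the pigment epithelium, came from animals of the strain BALB/c AJ at the age of 40 days. 3 arrays carry the genotype wt/wt and 3 carry ko/ko, the homozygous loss of Nxnl2, which encodes a thioredoxin-like protein of photoreceptors known as rod-derived cone viability factor 2. No other allele or treatment is given for either genotype, and the labels do not say how many animals a sample holds or whether replicates came from separate animals. All p-values are therefore set against the spread among these arrays alone, and that spread may be technical.

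Odorant receptors are G-protein-coupled receptors of the olfactory epithelium, the sensory lining of the nose, and form the largest gene family of the mouse. Each olfactory sensory neuron expresses a single receptor gene from a single allele, so the RNA of any given receptor is found in a small share of the neurons of the nose. Class I receptors resemble those of fish and lie in a cluster around the beta-globin genes, while class II receptors are spread over many chromosomes. Some receptors are also known from other tissues such as testis, kidney and blood vessels. The retina is not a tissue of odorant detection.

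The array labelled ko/ko rep3 stood apart from the other 5 and went against its label. Nxnl2 (brighter probe set) read 11.38, 11.45 and 11.42 in wt/wt, 3.78 and 3.73 in ko/ko rep1 and rep2, and 9.21 in the array labelled ko/ko rep3. Over probe sets it correlated at 0.848 to 0.853 with the rest, while the other 5 correlated among themselves at 0.994 to 0.996. Of the rod markers, 5 of 5 measured lay more than 1 log2 unit below the other 5 arrays there, and 2 of the 5 stayed above the controls described below. All 7 measured markers of mature olfactory sensory neurons lay more than 1 above. The mean log2 level of these 7 markers was 11.88 in that array and 5.81 to 6.02 in the other 5, and that of the 5 rod markers was 4.07 against 13.84 to 13.93. Markers of some other cells moved there as well. More than 1 above stood 2 of 2 sustentacular and Bowman gland markers (median difference 10.41) and 2 of 3 of respiratory ciliated cells (3.10). So did 2 of 4 markers of immature olfactory neurons (1.19), while 4 of 4 cone markers (-6.61) stood as far below. Of 3 basal cell markers, 1 stood more than 1 above (Krt5, 2.72), with a list median of -0.0025. Of 3 vomeronasal neuron markers 0 did, with a median of -0.28. The lists that moved do so together with every difference of this array given below, and their part in the receptor values was not tested. Fewer cells of a type and less RNA per cell cannot be told apart in such bulk samples.

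The sequences before the start of 4 receptors whose measured values were higher in the array labelled ko/ko rep3 are printed here. For Olfr156 among them a difference is not established, as described below. Among receptors matched to a promoter sequence, these 4 rank highest of those whose RefSeq model does not begin at the start codon. Olfr672, which ranks above Olfr1509, was not matched. The sequences are the 250 bases before the annotated start, from RefSeq build GRCm38.p6, 5′ to 3′ in the direction of the gene. Capitals mark the homeodomain core TAATTA or TAATGA on either strand, the letters that Lhx2 and Emx2, homeodomain factors of receptor choice, are known to bind. The windows lie at chr14:50744325-50744574 (minus strand, Olfr749), chr7:105330279-105330528 (minus strand, Olfr690), chr14:52450143-52450392 (plus strand, Olfr1509) and chr4:43821434-43821683 (minus strand, Olfr156).
Olfr749: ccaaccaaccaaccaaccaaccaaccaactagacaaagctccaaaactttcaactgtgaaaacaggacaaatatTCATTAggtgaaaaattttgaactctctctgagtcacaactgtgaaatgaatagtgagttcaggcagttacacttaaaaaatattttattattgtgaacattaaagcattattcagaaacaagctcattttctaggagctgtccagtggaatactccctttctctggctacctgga
Olfr690: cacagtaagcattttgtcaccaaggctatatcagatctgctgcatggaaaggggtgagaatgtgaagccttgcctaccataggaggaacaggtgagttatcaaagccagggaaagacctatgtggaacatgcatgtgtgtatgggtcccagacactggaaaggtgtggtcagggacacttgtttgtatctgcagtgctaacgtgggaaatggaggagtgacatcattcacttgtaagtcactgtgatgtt
Olfr1509: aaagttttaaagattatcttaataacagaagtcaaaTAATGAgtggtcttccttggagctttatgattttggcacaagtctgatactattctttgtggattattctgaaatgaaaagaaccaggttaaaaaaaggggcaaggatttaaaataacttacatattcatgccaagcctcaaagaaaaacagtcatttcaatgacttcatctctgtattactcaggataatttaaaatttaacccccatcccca
Olfr156: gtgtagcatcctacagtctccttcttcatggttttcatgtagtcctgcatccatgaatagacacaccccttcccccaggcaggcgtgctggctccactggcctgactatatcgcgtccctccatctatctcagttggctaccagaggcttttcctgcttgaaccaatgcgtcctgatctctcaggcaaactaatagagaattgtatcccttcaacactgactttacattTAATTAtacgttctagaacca

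A homeodomain core began 176 bases before the start in Olfr749, 214 in Olfr1509 and 21 in Olfr156, and these letters were not in the window of Olfr690. The promoter table matched 29 of the 39 receptors with 30 windows, of which 10 have the start codon itself as the annotated start. TAATGA stood on either strand in 7 of these 30 windows (23.3%), against 8.59% of all 32851 windows of the same length. TAATTA stood in 2 (6.67%, against 4.84%) and the TATA letters TATAAA in 9 (30%, against 12.4%). A palindrome of TCCC and GGGA with any 2 bases between them, of the kind bound by EBF factors of olfactory neurons, stood in 0 of 30 windows and in 0.779% of all. Its first 4 letters, TCCC, stood on either strand in 25 (83.3%, against 92.6%). TAATGA and TAATTA can overlap each other by their end letters. Among the 8 windows of receptors that stood more than 1 log2 unit higher in the array labelled ko/ko rep3, 3 held TAATGA, 1 held TAATTA and 1 held TATAAA. In Olfr73, Olfr17, Olfr870 and Olfr15 the annotated start is the start codon itself, so these windows may not be promoters. They include the TAATGA of Olfr870 and the TATAAA of Olfr73. The shares were not matched for base composition.

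In the 5 arrays other than the one labelled ko/ko rep3, the receptors lay at the floor of the array. A level was compared with the 27 Bacillus control probe sets, which match no mouse transcript, and the highest of these read 4.13 to 4.60 over the 6 arrays. Above it stood 9 receptors in wt/wt rep1, 1 in rep2 and 8 in rep3, and 5 and 6 in ko/ko rep1 and rep2. These are 2.56% to 23.1% of the receptors, where 72.4% to 77.8% of all genes stood above the same limit in those arrays (percentages for all genes were 77.8%, 72.4%, 76.9%, 75.7% and 75.4% in the order just given). The wild-type array with 1 receptor is also the array with the highest control, 4.60. The brightest control was the same probe set in every array, and with the next brightest as the limit, chosen after seeing the data, 15 to 21 receptors stood above it in the 5 arrays. The share of all genes above that second limit was not computed, so these counts have no background to be read against.

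No difference beyond the spread between arrays was found between wild type and knockout in the number of receptors above the limit. The mean count was 6 ± 4.36 (SD, n = 3) in wt/wt and 5.5 ± 0.707 (SD, n = 2) in ko/ko rep1 and rep2, with p = 1 by an exact permutation test, two-sided. With all 3 arrays labelled ko/ko the mean count was 10.3 ± 8.39 (SD, n = 3) and the exact permutation p = 0.6. The smallest p these designs allow is 0.2 for 3 against 2 and 0.1 for 3 against 3. The median receptor level was 3.52 ± 0.06 (log2, SD, n = 3) in wt/wt and 3.58 ± 0.06 (SD, n = 2) in ko/ko rep1 and rep2, with an exact permutation p = 0.4. With all 3 arrays labelled ko/ko it was 3.80 ± 0.37 (SD, n = 3), a difference of 0.27 with an exact permutation p = 0.2.

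Where 13097 of all 18193 genes stood above the limit in all 5 of these arrays, 1 of the 39 receptors did. This was Olfr15, a class II receptor of chromosome 16 known as OR3, which read 5.57, 5.23 and 5.47 in wt/wt and 5.47 and 5.75 in ko/ko rep1 and rep2. Its groups overlapped, and the fitted difference was 0.18 (SE 0.13). Olfr16, Olfr870, Olfr71 and Olfr701 stood above the limit in 4 of the 5 arrays. Olfr78, Olfr140, Olfr288 and Olfr1508 did so in 2 of 5. The other 30 receptors stood below it in all 5, where 3862 of all 18193 genes did.

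In the array labelled ko/ko rep3, 20 of 39 receptors (51.3%) stood above its highest control of 4.13, where 80.4% of all genes did. Of these, 11 were below the limit in all other arrays: Olfr749, Olfr690, Olfr73, Olfr17, Olfr672, Olfr1509, Olfr156, Olfr65, Olfr976, Olfr49 and Olfr544. Of all 18193 genes, 885 passed the limit only in that array. The remaining 19 receptors stood below the limit in all 6 arrays, where 2977 of all 18193 genes did. With the next brightest control as the limit, 28 receptors stood above it in the array labelled ko/ko rep3, and the share of all genes was again not computed. The median receptor level was 4.22 in this array and 3.46 to 3.62 in the other 5.

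**Figure D1:**
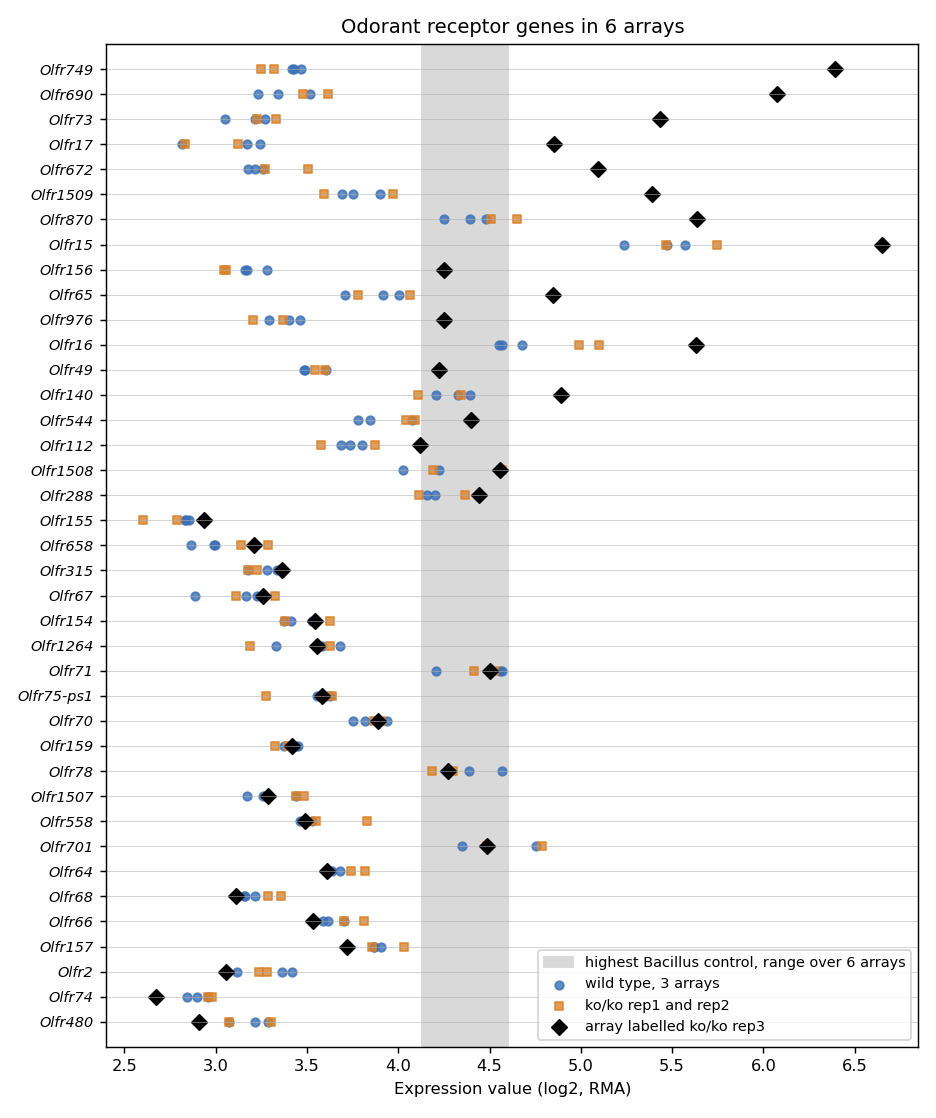
The value of each of the 39 odorant receptor genes (log2 axis, RMA) in the 3 wt/wt arrays (circles), ko/ko rep1 and rep2 (squares) and the array labelled ko/ko rep3 (diamonds), ordered by the difference of that array, with the range of the highest Bacillus control over the 6 arrays shaded (4.13 to 4.60). The diamonds of the upper 14 receptors lie to the right of all other symbols, and from Olfr749 to Olfr15 by up to 3.01 log2 units over the mean.

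Set against the mean of the other 5 arrays, 9 receptors stood more than 1 log2 unit (a factor of 2) higher in the array labelled ko/ko rep3 and 0 stood as far below. That is 23.1% of the receptors, where 15.8% of all 18193 genes were as far above and 11.5% as far below. Among the 6545 genes whose mean in the other 5 arrays lies in the range of the receptors, a group chosen after seeing the data, 21% were more than 1 above and 1.34% more than 1 below. The share of receptors is thus close to that of other dim genes in both directions. More than 2 above stood 3 receptors (7.69%), where 7.44% of all genes did. Above every other array stood 18 receptors (46.2%), where 36.5% of genes did, and 6 (15.4%) stood below every other array, where 42.4% of genes did. The median difference was 0.15 over the receptors and -0.05 over all genes. A single array stands on one side of this comparison, so it has no replicate check and no p-value is given.

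**Figure D2:**
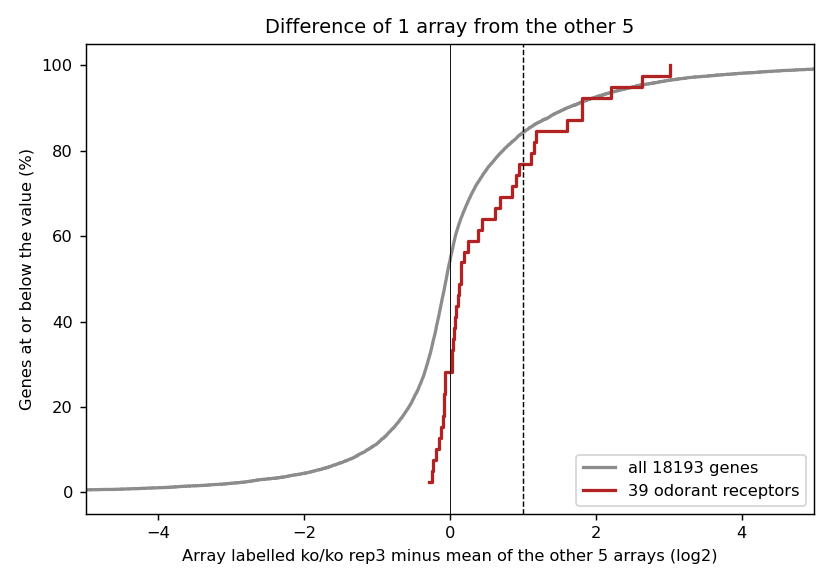
Cumulative share of genes (vertical axis, percent) by the difference of the array labelled ko/ko rep3 from the mean of the other 5 arrays (horizontal axis, log2), for 39 odorant receptors and for all 18193 genes, of which some lie beyond the plotted range. The receptor line starts close to 0, has no member more than 1 below, and lies to the right of the line for all genes at the dashed mark of 1.

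Of the 9 receptors more than 1 above, 7 were below the control limit in all other 5 arrays, so their measured differences start from values that may be background. With each of the other arrays taken at the higher of its highest control and the measured value, a setting chosen after seeing the data, 6 of the 39 receptors stood more than 1 above, and 8 of the 11 receptors that passed the limit only in the array labelled ko/ko rep3 kept a difference above 0. Olfr749 was then at least 4.17-fold higher there, Olfr690 at least 3.35-fold, Olfr73 at least 2.15-fold, Olfr1509 at least 2.08-fold, Olfr672 at least 1.70-fold, Olfr17 at least 1.44-fold, Olfr65 at least 1.43-fold and Olfr544 at least 1.05-fold. For Olfr156, Olfr976 and Olfr49 no fold is given by this measure. The shares of all genes at this setting were not computed. These 11 receptors were picked for passing the limit only in that array, which by itself favours a difference above 0. The sizes below are measured differences, which for these 11 receptors have no order beyond the bounds.

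The largest measured differences were those of Olfr749 and Olfr690. Olfr749, a class II receptor of chromosome 14 whose RefSeq synonyms include Ors1, read 3.47, 3.43 and 3.42 in wt/wt, 3.32 and 3.25 in ko/ko rep1 and rep2, and 6.39 in the array labelled ko/ko rep3. It thus stood 3.01 above the mean of the other 5 arrays (3.38 ± 0.09, SD, n = 5). Olfr690, a class I receptor, read 3.52, 3.34 and 3.23 in wt/wt, then 3.62, 3.48 and 6.07. Its difference was 2.64, where the 5 other arrays had an SD of 0.15. In both genes the lone array lay far outside the range of the rest, which overlapped between genotypes for Olfr690.

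Olfr73, known as mOR-EG and activated by eugenol, had the next largest measured difference. It read 3.27, 3.22 and 3.05 in wt/wt, 3.33 and 3.23 in ko/ko rep1 and rep2, and 5.43 in the array labelled ko/ko rep3, a difference of 2.21. Olfr74 (mOR-EV), of the same receptor family and also on chromosome 2, read 2.67 there against 2.93 ± 0.06 (SD, n = 5), below all other arrays. Olfr480, Olfr74 and Olfr2, which had the lowest measured differences, were below the control limit in all 6 arrays, so their values have no order. Olfr2, the I7 receptor, is known for its response to octanal.

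Olfr17, the P2 receptor used in studies of axon targeting, read 3.24, 2.81 and 3.17 in wt/wt, 3.12 and 2.83 in ko/ko rep1 and rep2, and 4.85 in the array labelled ko/ko rep3. Olfr672, a class I receptor, read 3.22, 3.26 and 3.18, then 3.27 and 3.50, and 5.10 there. The differences were 1.82 and 1.81, many times the SD of the other 5 arrays (0.20 and 0.13). Differences between 1 and 2 were also those of Olfr1509 (1.61), Olfr870 (1.18), Olfr15 (1.15) and Olfr156 (1.11). Olfr870 read 5.64 in the lone array against 4.46 ± 0.15 (SD, n = 5), and Olfr15 read 6.65 against 5.50 ± 0.19 (SD, n = 5). Just below the mark of 1 stood Olfr65 (0.95), Olfr976 (0.91) and Olfr16 (0.85), followed by Olfr49 (0.68) and Olfr140 (0.62). The other 25 receptors lay between -0.28 and 0.43.

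Members of the same gene cluster differed from each other in that array. Olfr1507, Olfr1508 and Olfr1509 are neighbours on chromosome 14, known as MOR28, MOR10 and MOR83, and share a distant enhancer called the H element. Olfr1509 read 3.90, 3.69 and 3.75 in wt/wt, 3.97 and 3.59 in ko/ko rep1 and rep2, and 5.39 in the array labelled ko/ko rep3. Olfr1507 read 3.29 there against 3.36 ± 0.14 (SD, n = 5), and Olfr1508 read 4.56 against 4.31 ± 0.24 (SD, n = 5), both within the range of the other arrays.

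Measured values also differed within the OR37 subfamily of chromosome 4, whose neurons sit in a central patch of the epithelium, but these lay at or below the control limit. Of its 4 measured members, Olfr156 (OR37B) read 3.17, 3.16 and 3.28 in wt/wt, 3.04 and 3.06 in ko/ko rep1 and rep2, and 4.25 in the array labelled ko/ko rep3. Olfr155 (OR37A), Olfr157 (OR37C) and Olfr159 (mOR37e) differed by 0.15, -0.19 and 0.022, and stood below the control limit in all 6 arrays. The value of Olfr156 in the array labelled ko/ko rep3 lay just above its limit of 4.13. With the other arrays taken at no less than their highest control its difference was -0.079, so a difference of Olfr156 is not established. Probe sets of near-identical family members can share hybridising RNA, so the split of signal between relatives is uncertain.

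By class, 2 of 11 class I receptors and 7 of 26 class II receptors stood more than 1 above in the array labelled ko/ko rep3. Of all genes 15.8% did, and of genes in the receptors' range of level 21% did. These shares are the background for the chromosomes below as well. The median difference was 0.12 for class I and 0.14 for class II. For 2 receptors, Olfr16 and Olfr49, the synonyms in the gene table give no family number in the usual form, so they were put in neither class. By chromosome, 3 of the 15 receptors on chromosome 7 passed the mark, 2 of 5 on chromosome 14, 1 of 5 on chromosome 2 and 1 of 6 on chromosome 4. The single receptor on chromosome 16 and 1 of 2 on chromosome 9 complete the 9.

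Of the receptors known from tissues outside the nose, Olfr78, Olfr558 and Olfr544 lay near or below the control limit in most arrays, while Olfr16, described after them, lay above it in 5 of 6. Olfr78, a class I receptor of kidney, blood vessels and the carotid body that responds to short-chain fatty acids, read 4.57, 4.39 and 4.26 in wt/wt, 4.18 and 4.30 in ko/ko rep1 and rep2, and 4.27 in the array labelled ko/ko rep3. These values straddle the control limit, and the groups overlap. Olfr558, of the same receptor family and also a receptor for short-chain fatty acids, read 3.48, 3.53 and 3.46, then 3.55, 3.83 and 3.49, below the limit throughout. Olfr544, a receptor for azelaic acid, read 3.78, 3.84 and 4.07, then 4.04, 4.09 and 4.40, and passed the limit only in the array labelled ko/ko rep3.

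Olfr16, known as MOR23 and found in both olfactory neurons and sperm, was the receptor with the smallest p between the genotypes. It read 4.57, 4.55 and 4.68 in wt/wt, 5.10 and 4.99 in ko/ko rep1 and rep2, and 5.63 in the array labelled ko/ko rep3. All 3 arrays labelled ko/ko lay above all wt/wt arrays. In the 5 arrays without ko/ko rep3 the difference was 0.44 (SE 0.09), with an unadjusted p = 0.00129 and a limma adjusted p = 0.999 over all genes, so it was not called. With all 6 arrays it was 0.64 (SE 0.19, limma adjusted p = 0.745). In wt/wt rep2 the Olfr16 value lay just below that array's highest control.

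No receptor was called between the genotypes by limma. In the 5 arrays, 0 of 39 receptors passed an adjusted p of 0.05, as did 0.011% of all genes, and 2 receptors (5.13%) had an unadjusted p under 0.05, where 3.45% of genes did. With all 6 arrays, 0 receptors and 0% of genes passed, and 2 receptors stood under an unadjusted p of 0.05, where 0.726% of genes did. For receptors that stood apart in the array labelled ko/ko rep3, its inclusion widened the spread within ko/ko. The SE of Olfr749 was 0.89 with 6 arrays and 0.09 with 5, so the fit with 6 arrays had little power for such genes. The lowest adjusted p among receptors was 0.999 in the 5 arrays and 0.745 in the 6. In both comparisons the 2 receptors were Olfr16 and Olfr658. Olfr658, a class I receptor, read 2.990, 2.866 and 2.999 in wt/wt, 3.14 and 3.29 in ko/ko rep1 and rep2, and 3.21 in the array labelled ko/ko rep3, all below the control limit. Its difference in the 5 arrays was 0.26 (SE 0.10, unadjusted p = 0.0260).

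Differences between ko/ko rep1 and rep2 and wt/wt ran from -0.16 to 0.44 over the 39 receptors, with a median of 0.05 against 0.0048 over all genes. Of the receptors, 23 (59%) lay above 0, as did 51.9% of genes. Next on the higher side by p stood Olfr870 (0.21, SE 0.11), Olfr558 (0.20, SE 0.11) and Olfr690 (0.18, SE 0.11). On the lower side stood Olfr749 (-0.16, SE 0.09), Olfr156 (-0.15, SE 0.09), Olfr155 (-0.15, SE 0.10), Olfr78 (-0.16, SE 0.11) and Olfr75-ps1 (-0.14, SE 0.12), a transcribed pseudogene. Olfr749 and Olfr156, whose measured values were higher in the array labelled ko/ko rep3, lay below the wild-type arrays in ko/ko rep1 and rep2. In the 5 arrays, Olfr749, Olfr156, Olfr155, Olfr558, Olfr690 and Olfr75-ps1 stood below the control limit throughout, so their differences may be background. None of the receptors just listed passed the test. Leaving out 1 array moved several of them by over 1.5 times: without ko/ko rep2 Olfr558 was 0.057, Olfr155 -0.052, Olfr870 0.13 and Olfr75-ps1 -0.32, without ko/ko rep1 Olfr558 was 0.34, Olfr155 -0.24, Olfr690 0.11, Olfr78 -0.11 and Olfr75-ps1 0.045. Without wt/wt rep1 Olfr78 was -0.083, and without wt/wt rep3 Olfr690 was 0.12. With other probe sets Olfr78 turned to 0.022 (mean of all its probe sets) and 0.21 (the most variable probe set).

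Groups without overlap were counted as well. The values of ko/ko rep1 and rep2 lay above all wt/wt arrays for 8 receptors (20.5%), where 9.19% of genes did, and below them for 3 (7.69%), where 7.27% of genes did. The 8 were Olfr16, Olfr870 and 6 of the 11 class I receptors: Olfr658, Olfr558, Olfr672, Olfr68, Olfr64 and Olfr66. In the dimmer probe set of Olfr66 the groups overlapped (3.45, 3.33 and 3.22 in wt/wt, 3.33 and 3.41 in ko/ko rep1 and rep2). They also overlapped in the probe sets that name Olfr68 together with Olfr69, which were left out of the counts. The 3 below were Olfr749, Olfr156 and Olfr155, which stood below the control limit in all 5 arrays. The differences of the 6 class I receptors were 0.12 to 0.26, and their values were at most 3.83 in the 5 arrays, below every control limit. Of the class I receptors, 10 of 11 lay above 0 with a median of 0.15, and of the class II receptors 11 of 26 with a median of -0.0075. Of all genes 51.9% lay above 0. The 5 receptors that flank the beta-globin genes, Olfr64 to Olfr68, lay between 0.045 and 0.15. None of the 11 class I receptors passed the test, and 10 of them stood below the control limit in all 5 arrays. With the array labelled ko/ko rep3 included, the ko/ko arrays lay above all wt/wt arrays for 4 receptors (10.3%), where 4.64% of genes did, and below them for 0, where 4% did.

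**Figure D3:**
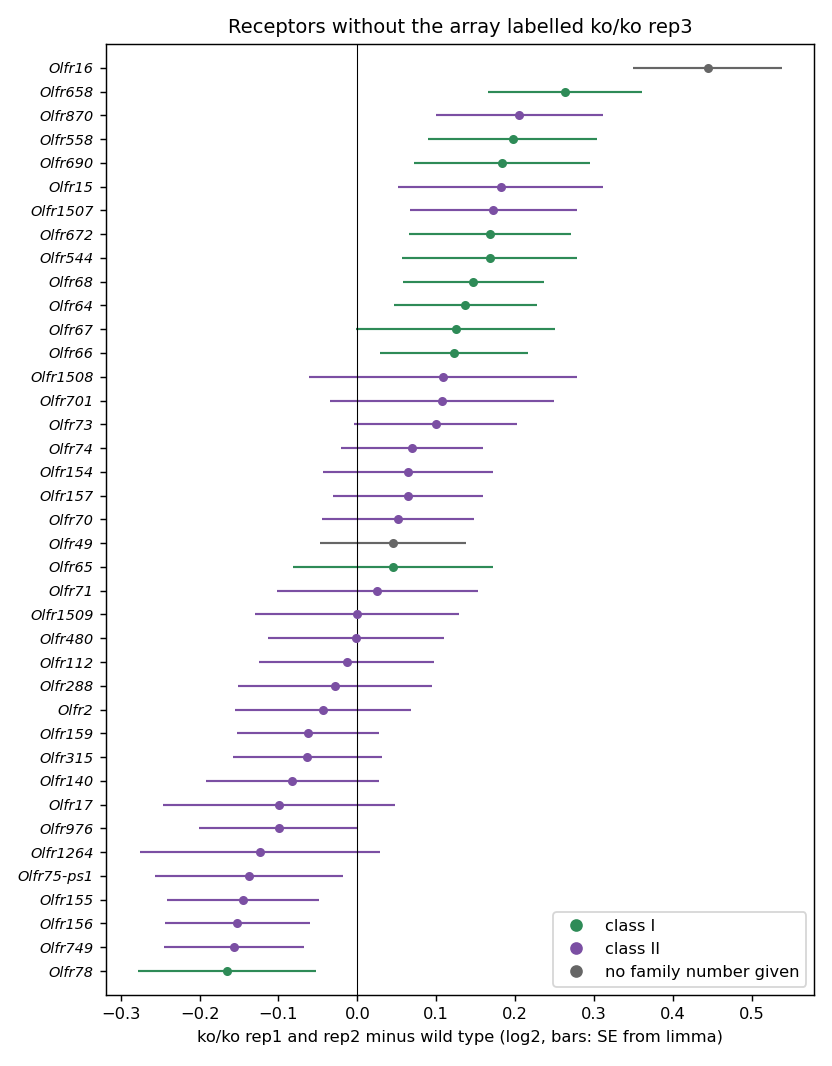
Difference between ko/ko rep1 and rep2 and the 3 wt/wt arrays (horizontal axis, log2) for each of the 39 receptors, with bars for the standard error from limma and colours for receptor class. All differences lie between -0.16 and 0.44, Olfr16 is the highest, and 10 of the 11 class I receptors lie to the right of 0, where 51.9% of all genes do.

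Genes that act with the receptors were read from fixed lists in the array labelled ko/ko rep3, where the receptors themselves had a median difference of 0.15. Receptors signal through the G protein subunit Gnal to the adenylyl cyclase Adcy3, whose product opens the channel made of Cnga2, Cnga4 and Cngb1. Of 15 measured signalling genes, 9 stood more than 1 above the mean of the other 5 arrays and 2 as far below, with a median of 2.55. Among the 9, Gnal, Gng13, Adcy3, Cnga2, Cnga4 and Omp were already counted above as markers of mature olfactory sensory neurons. So was Stoml3 of the trafficking list below. Of all genes, 15.8% stood as far above and 11.5% as far below, which is the background for this list and each that follows. Cnga2 read 11.30 there against 3.75 ± 0.15 (SD, n = 5), and Omp, the marker of mature olfactory neurons, read 12.61 against 5.44 ± 0.17 (SD, n = 5). Cngb1, which rods share as their channel subunit, went the other way, at 4.37 against 11.00 ± 0.19 (SD, n = 5).

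Among 16 genes of receptor choice, 9 stood more than 1 above and 0 as far below, with a median of 1.19. Ebf2 read 11.52 against 3.54 ± 0.10 (SD, n = 5), Emx2 read 6.95 against 3.10 ± 0.15 (SD, n = 5) and Atf5, which stabilises the chosen receptor, read 12.28 against 7.46 ± 0.09 (SD, n = 5). Of the chromatin genes of the list, the histone demethylase gene Kdm1a (0.11) and the histone methyltransferase gene Ehmt2 (0.0012) lay within 1, while Rcor1, a corepressor that partners Kdm1a, differed by 1.28. Of 8 genes of receptor trafficking, 2 stood more than 1 above and 2 as far below, with a median of 0.04: Stoml3 (9.15) and Rtp4 (1.87) against Reep2 (-2.49) and Reep6 (-4.25). Of 9 genes that sort receptor axons, 6 stood more than 1 above and 1 as far below, with a median of 1.98.

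Other chemosensory receptors were compared in the same way, first those of the vomeronasal organ, a separate sense organ for pheromones. None of the 31 measured Vmn1r and Vmn2r genes stood more than 1 above, and their differences ran from -0.65 to 0.69 with a median of -0.08. The single trace amine receptor measured, Taar1, differed by -0.13, 3 Tas1r taste receptors by a median of -0.31 and 3 Tas2r receptors by -0.27. The formyl peptide receptor gene Fpr2 differed by 1.37, and 3 of 17 Ms4a genes (17.6%) stood more than 1 above, a share close to the 15.8% of all genes. In the 5 arrays, limma called 0 of the 48 genes of the signalling, choice, trafficking and axon lists in either direction. An unadjusted p under 0.05 was found for 1 of them (2.08%, against 3.45% of all genes), Adcy3 with a difference of 0.23. In the 6 arrays limma called 0 of the 48 and 0 had an unadjusted p under 0.05, against 0.726% of all genes.

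**Figure D4:**
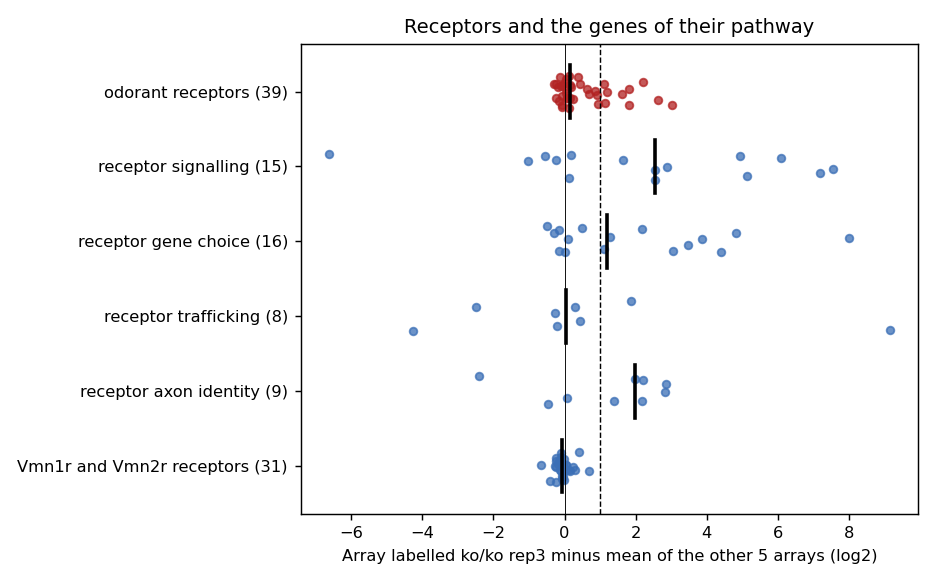
Difference of the array labelled ko/ko rep3 from the mean of the other 5 arrays (horizontal axis, log2) for each gene of 6 groups, with the number of genes in brackets and a black bar at the median. The median is 0.15 for the 39 odorant receptors, 2.55 for signalling genes and 1.19 for genes of receptor choice, while the 31 vomeronasal receptors lie between -0.65 and 0.69.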

How the data were processed

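Per the labels' protocols, retinal RNA was turned into biotin-labelled cRNA and read on 1-colour Affymetrix arrays. The deposited values are log2 expression, for which the submitters' processing notes name RMA. RMA corrects background, normalizes between arrays and summarises each probe set. The sources used here give neither its version nor the chip definition. Array medians were 5.77 to 5.80, which hides any change in total RNA; differences of dim probe sets are compressed, and precision is limited by the number of arrays.

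Of 45037 probe sets other than the 64 controls, 34945 name 1 gene, 932 several and 9160 none in the platform annotation. All 39 receptors matched RefSeq (GRCm38.p6) by Entrez identifier. Families numbered up to 42 in the synonyms were taken as class I. ko/ko was compared with wt/wt by limma 3.58.1 (lmFit, eBayes) in R 4.3.3, two-sided, with 6 arrays and without ko/ko rep3. Benjamini-Hochberg adjustment ran over all genes. Both fits were first run on simulated data with 100 changed genes. At a log2 change of 1, 99% were recovered with 6 arrays and 94% in the design without ko/ko rep3. False calls numbered 12 and 10. The measured 6 arrays include the outlying array labelled ko/ko rep3, and there 0 of 18193 genes were called. The simulated share thus cannot be taken as the power of the fit with 6 arrays. Exact permutation tests used scipy 1.17.1. Named were Olfr16, receptors above the control limit, those with the smallest p, the lowest differences and a list of much-studied receptors. The members and lists were chosen with earlier results of these data known.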

Additional observations from a re-analysis of the deposited data

Results flagged for a closer look

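A pair of receptor probe sets that represent no gene in the counts, because a brighter probe set of the same gene was used, stood above the wild-type arrays and above the highest Bacillus control in the array labelled ko/ko rep3. A second probe set of Olfr701 read 4.99 there, against 3.15, 3.24 and 3.15 in wt/wt and 3.14 and 3.34 in ko/ko rep1 and rep2. The brighter probe set of this gene read 4.49 there, within the range of the other arrays. Another probe set of Olfr78 read 4.70 there, against 3.70, 3.63 and 3.52 in wt/wt and 3.85 and 3.81 in ko/ko rep1 and rep2, while the brightest probe set of this gene did not differ in that way. The cause of the disagreement between probe sets was not tested.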

How the results depend on the processing

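The number of receptors called was 0 in each comparison under all alternatives run, with 0 to 4 receptors at an unadjusted p under 0.05. Removal of genes with a mean below the 40th percentile left 0 receptors, so it gave no value. The replicate number as a block also gave 0 calls in both comparisons. Deviations of same-numbered arrays from their group means correlated at -0.06, -0.03 and -0.10. The ko/ko mean used there includes the outlying array labelled ko/ko rep3, so these values cannot tell whether the numbers are pairs. The main fits use no pairing. The 9 receptors more than 1 higher in the array labelled ko/ko rep3 became 14 with a mark of 0.5 (35.9%, where 24.5% of all genes passed it). They became 3 with a mark of 2 (7.69%, where 7.44% of all genes did). With the other arrays taken at no less than their highest control (added after seeing the data) they became 6, and the share of all genes was not computed. The count above the limit there (20) became 38 with the median control, and 7 with the highest control plus 1. In the other 5 arrays the lowest and highest counts (1 and 9) became 35 and 38, and 0 and 1, under the same settings, and 15 and 21 with the brightest control left out. The shares of all genes under these other limits were not computed. Olfr78 turned to 0.022 and 0.11 (5 and 6 arrays) with the mean of all probe sets and to 0.21 and 0.50 with the most variable. With 1 array left out, Olfr75-ps1 ranged from -0.32 to 0.045 (5 arrays) and from -0.17 to 0.015 (6 arrays), the upper value of each without ko/ko rep1. No alternative moved the median receptor difference by more than the spread between arrays (1 SD, 0.06).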
